A study of Mus musculus with 24 samples.

Results

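Livers of mice that lack lipin 1 in adipocytes were examined for 6 genes: the protein-coding genes Gprin3, Lcor, Tff3 and Adgrf1 and the long noncoding genes 4930565N06Rik and 1700023H06Rik. They were selected on measured values, as genes with large decreases in knockout livers on 1 or both diets, with zinc finger and Mup genes left out, and the rule states no numeric limit. All 6 members were found among the 41388 genes listed per library, each as 1 feature, and all 6 were among the 13052 genes tested. Because the difference between genotypes chose the members, it is given below as a description with no test. Diet averaged over the genotypes, whose weights are orthogonal to those of both genotype contrasts in this balanced design, was the comparison tested. Orthogonal weights free a test from the choice of members only where group means are equally precise, which was not so for every member. The test is therefore not shown to be fully free of that choice.

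Livers came from male WT mice and male Adn-Lpin1-/- mice on a C57BL/6J background, and all of them carried the floxed Lpin1 allele on both chromosomes. Adn-Lpin1-/- mice also carried Cre driven by the adiponectin promoter, which is active in adipocytes, and WT mice were littermates without Cre. From 8 weeks of age they ate a diet in which fat supplied 10% (LFD) or 60% (HFD) of kcal, for 5 weeks by the paper and for 16 weeks by the sample labels, and they were fasted for 4 hours before tissue collection. Poly-A RNA of 5 single mice per group was sequenced (20 libraries), along with 1 library per group made from pooled RNA of these mice.

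LCOR is a corepressor that binds ligand-activated nuclear receptors and brings CtBP proteins and histone deacetylases to them. GPRIN3 belongs to a small family of membrane-associated proteins that bind activated G protein alpha subunits of the Go and Gi class, and ADGRF1 (also named GPR110) is an adhesion G protein-coupled receptor. TFF3 is a small secreted trefoil peptide, known best from mucus-producing epithelia, where trefoil peptides act with mucins in repair of the surface.

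Total counts per mouse ranged from 36260187 to 81072794, with group medians from 40777580 in WT LFD to 62306028 in Adn-Lpin1-/- HFD. WT LFD mice, at 36260187 to 45999456, lay below all mice of the other groups. Adn-Lpin1-/- LFD mice had 51095146 to 61435897 and WT HFD mice 54036184 to 62249701. Depth thus went with genotype on the LFD and with diet in WT mice. Values below are CPM, counts scaled by each library's TMM-adjusted size. Lpin1 itself ranged from 137 to 673 CPM in WT livers and from 120 to 1195 CPM in Adn-Lpin1-/- livers, which does not check the genotype, since the deletion is in adipocytes. Livers of the 2 genotypes also differed in their trend with GC content. The fitted trend of log2 CPM with transcript GC content, as its mean over the tenth of genes lowest in GC minus that over the tenth highest and relative to the mean of the libraries, was between 0.014 and 0.29 in the 10 WT mice and between -0.33 and -0.059 in the 10 Adn-Lpin1-/- mice.

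The 6 genes lie on 5 chromosomes of GRCm38. Gprin3 (ENSMUSG00000045441) is at chr6:59352461-59426290 on the minus strand and Lcor (ENSMUSG00000025019) at chr19:41482645-41562246 on the plus strand. Tff3 (ENSMUSG00000024029) is at chr17:31125306-31129646 on the minus strand and Adgrf1 (ENSMUSG00000041293) at chr17:43270329-43324737 on the plus strand. 4930565N06Rik (ENSMUSG00000084834), annotated as antisense, is at chr16:36880519-36897189 on the minus strand, inside the span of Golgb1 on the plus strand. 1700023H06Rik (ENSMUSG00000089827), annotated as a processed transcript, is at chr13:80884224-80885524 on the minus strand, inside the span of Arrdc3 on the plus strand. Neither noncoding gene shares an exon base with the gene around it. Their transcripts were 41.7% GC for Gprin3, 42.0% for Lcor, 40.1% for 4930565N06Rik, 42.9% for 1700023H06Rik, 47.3% for Adgrf1 and 55.0% for Tff3, where the median of tested genes was 49.7%. Thus the genes at or below the 16th percentile of tested genes were Gprin3 (11.2), Lcor (12.3), 4930565N06Rik (6.24) and 1700023H06Rik (15.7), whereas Adgrf1 was at 37.0 and Tff3 at 78.2.

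RefSeq promoters (GRCm38.p6, the bases around the start) were matched for 4 of the 6 genes, Adgrf1, Gprin3, Lcor and 4930565N06Rik. They are shown because the genes were lower together in one comparison and their start regions can be set side by side. Each is 300 bases, 5′ to 3′ on the strand of the gene, with every CG dinucleotide in capitals. Windows are at chr6:59426257-59426556 (minus strand) for Gprin3, chr19:41482432-41482731 (plus) for Lcor, chr17:43270097-43270396 (plus) for Adgrf1 and chr16:36897140-36897439 (minus) for 4930565N06Rik.
Lcor: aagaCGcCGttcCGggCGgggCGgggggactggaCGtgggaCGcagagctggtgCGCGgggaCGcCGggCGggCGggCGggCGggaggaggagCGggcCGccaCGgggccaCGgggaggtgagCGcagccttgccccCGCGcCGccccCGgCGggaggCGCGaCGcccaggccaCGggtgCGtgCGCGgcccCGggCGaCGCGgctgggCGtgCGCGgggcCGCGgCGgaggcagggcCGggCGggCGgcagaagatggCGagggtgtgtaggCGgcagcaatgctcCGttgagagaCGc
Gprin3: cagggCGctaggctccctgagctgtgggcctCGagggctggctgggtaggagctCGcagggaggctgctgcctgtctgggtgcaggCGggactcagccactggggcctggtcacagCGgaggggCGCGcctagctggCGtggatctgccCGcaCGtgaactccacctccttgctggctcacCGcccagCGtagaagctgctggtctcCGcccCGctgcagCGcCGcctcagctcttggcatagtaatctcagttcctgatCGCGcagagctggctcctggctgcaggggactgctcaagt
Adgrf1: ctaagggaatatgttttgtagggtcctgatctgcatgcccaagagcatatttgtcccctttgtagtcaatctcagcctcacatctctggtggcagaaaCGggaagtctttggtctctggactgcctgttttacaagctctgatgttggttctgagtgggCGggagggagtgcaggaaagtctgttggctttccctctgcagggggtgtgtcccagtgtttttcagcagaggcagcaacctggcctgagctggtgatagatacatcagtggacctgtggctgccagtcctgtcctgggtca
4930565N06Rik: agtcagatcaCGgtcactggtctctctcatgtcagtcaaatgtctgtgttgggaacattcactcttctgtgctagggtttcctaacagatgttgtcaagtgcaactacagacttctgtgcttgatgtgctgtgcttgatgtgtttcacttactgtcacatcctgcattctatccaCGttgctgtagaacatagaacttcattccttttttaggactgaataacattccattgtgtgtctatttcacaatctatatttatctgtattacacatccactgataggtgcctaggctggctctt
The start of Lcor holds 49 CG dinucleotides and that of Gprin3 holds 18, whereas Adgrf1 and 4930565N06Rik hold 2 each, and the median of 32851 promoters was 7. GC content was 81.0% for Lcor, 67.7% for Gprin3, 52.7% for Adgrf1 and 41.3% for 4930565N06Rik, beside a median of 52.7%. The GC box GGGCGG, searched on both strands, occurred 9 times for Lcor, 2 times for Gprin3, 1 time for Adgrf1 and not at all for 4930565N06Rik, and 35.7% of all promoters held it. The E-box CACGTG occurred once, at Gprin3 (7.15% of promoters). The letters of a STAT site TTCNNNGAA (8.30% of promoters), a forkhead site TGTTTAC (3.65%), a CCAAT box (37.4%) and a nuclear receptor site AGGTCA (16.3%) were in none of the 4 windows. The 4 windows therefore share no motif of this search.

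In Adn-Lpin1-/- livers on the LFD, 1700023H06Rik, 4930565N06Rik, Gprin3 and Lcor were between 5.08-fold and 18.6-fold lower than in WT livers, and on the HFD all 6 genes were between 4.21-fold and 10.0-fold lower. Every Adn-Lpin1-/- mouse lay below every WT mouse in 4 of the 6 genes (LFD) and in all 6 (HFD), and 6.21% and 5.60% of all tested genes did so. The members called lower were 4 of 6 with the LFD and 6 of 6 with the HFD, where 8.11% and 8.78% of all genes were called lower and 6.27% and 9.87% higher (edgeR, threshold 0.05). This contrast chose them, and nothing is read from these counts. Of the genes called at least 4-fold lower, members made up 4 of 13 with the LFD and 6 of 15 with the HFD. In whole liver, fewer cells of a type and less RNA per cell cannot be told apart.

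**Figure D1:**
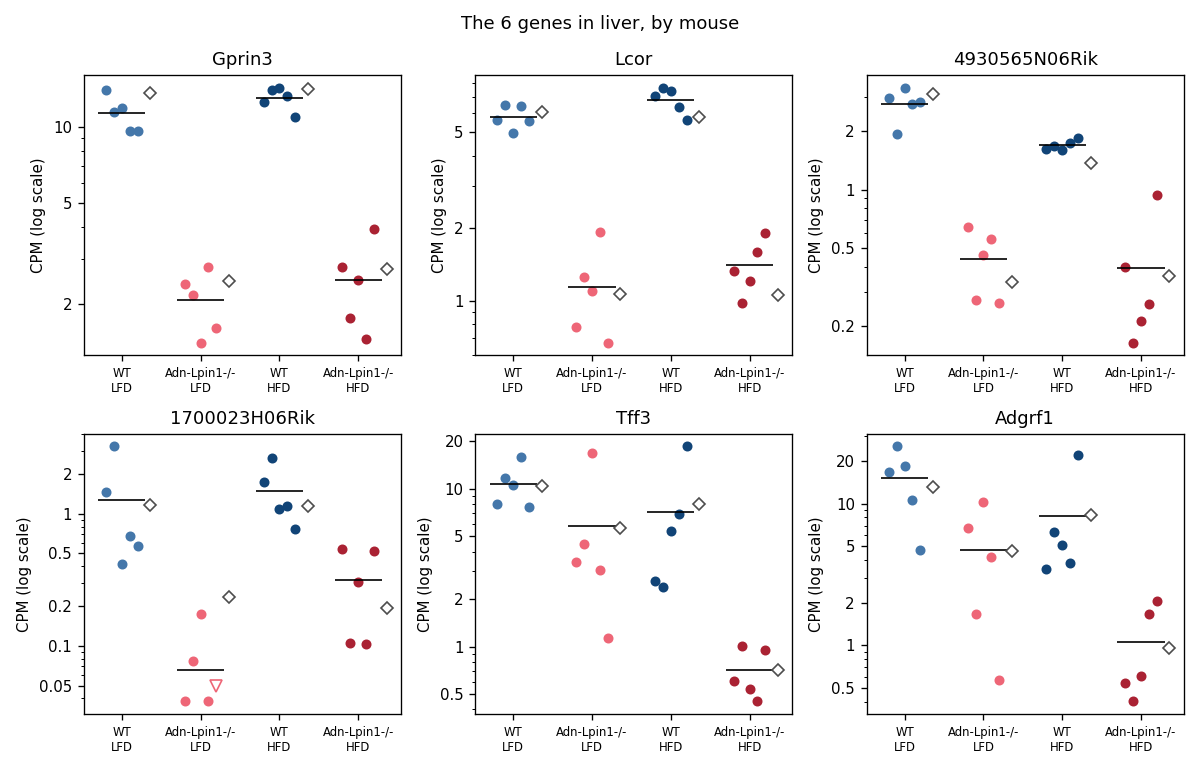
CPM (log scale) of the 6 genes in each mouse of the 4 groups, with points for single mice, lines for group means and open diamonds for the pooled library of the group. The open triangle is a count of 0 drawn at the level of 3 counts. Red Adn-Lpin1-/- points lie below the blue WT points of the same diet in every panel on the HFD, and overlap them on the LFD in Tff3 and Adgrf1.

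Gprin3 had tight WT groups. On the LFD it measured 13.9, 11.4, 11.9, 9.61 and 9.64 CPM in WT mice 1 to 5, against 2.39, 2.16, 1.40, 2.79 and 1.61 CPM in Adn-Lpin1-/- mice 1 to 5. On the HFD it measured 12.5, 13.9, 14.2, 13.2 and 10.9 CPM in WT mice and 2.80, 1.76, 2.49, 1.45 and 3.95 CPM in Adn-Lpin1-/- mice. No knockout mouse came near the lowest WT mouse on either diet. Means on the LFD were 11.3 ± 1.78 CPM (SD, n = 5) for WT and 2.07 ± 0.57 CPM for Adn-Lpin1-/- mice, and on the HFD 12.96 ± 1.34 and 2.49 ± 0.98 CPM. The log2 difference between genotypes was -2.45 (SE 0.22) on the LFD and -2.37 (SE 0.22) on the HFD, so Gprin3 was lower by nearly the same amount on both diets. Its family members Gprin1 and Gprin2 had at most 3 counts in any mouse, so that of the GPRIN genes Gprin3 alone passed the limit on low counts.

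Lcor had the same shape. Its LFD values were 5.58, 6.48, 4.97, 6.38 and 5.57 CPM in WT mice and 0.777, 1.25, 1.10, 1.92 and 0.672 CPM in Adn-Lpin1-/- mice. Its HFD values were 7.02, 7.64, 7.38, 6.37 and 5.63 CPM in WT mice and 1.33, 0.984, 1.21, 1.59 and 1.91 CPM in Adn-Lpin1-/- mice. The genotypes were apart in every mouse, and the highest knockout value, 1.92 CPM on the LFD, was below the lowest WT value of that diet, 4.97 CPM. WT and Adn-Lpin1-/- means were 5.80 ± 0.63 and 1.14 ± 0.49 CPM (SD, n = 5) on the LFD, and 6.81 ± 0.81 and 1.40 ± 0.36 CPM on the HFD. The log2 difference between genotypes was -2.34 (SE 0.22) on the LFD and -2.28 (SE 0.22) on the HFD.

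RefSeq's Lcor extends further than the feature that was counted. It runs from 41482682 to 41596161 and lists Gm340 as a synonym, whereas the counted Lcor feature ends at 41562246, and Gm340 (41582370 to 41586536) and ENSMUSG00000074873 (41593363 to 41596158) were counted as features of their own inside that span. Gm340 was the nearest tested gene downstream, and ENSMUSG00000074873 was added after its values were seen. Gm340 measured 2.91, 3.98, 3.04, 2.61 and 1.77 CPM in WT mice on the LFD, and 4.91, 3.82, 3.24, 3.02 and 3.13 CPM in Adn-Lpin1-/- mice. The ranges of the genotypes overlapped, unlike those of Lcor. Its log2 difference was 0.34 (SE 0.19, adjusted p = 0.266, edgeR) on the LFD and -0.33 (SE 0.19, adjusted p = 0.243, edgeR) on the HFD. For ENSMUSG00000074873 it was 0.25 (SE 0.19, adjusted p = 0.406, edgeR) and 0.30 (SE 0.19, adjusted p = 0.277, edgeR). Neither feature therefore passed the test, and neither estimate was near the 5.08-fold and 4.84-fold differences of the Lcor feature. The paralog Lcorl was lower by 0.45 (SE 0.12, adjusted p = 0.0171, edgeR) on the LFD and by 0.44 (SE 0.12, adjusted p = 0.0160, edgeR) on the HFD on the log2 scale, far less than Lcor.

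**Figure D2:**
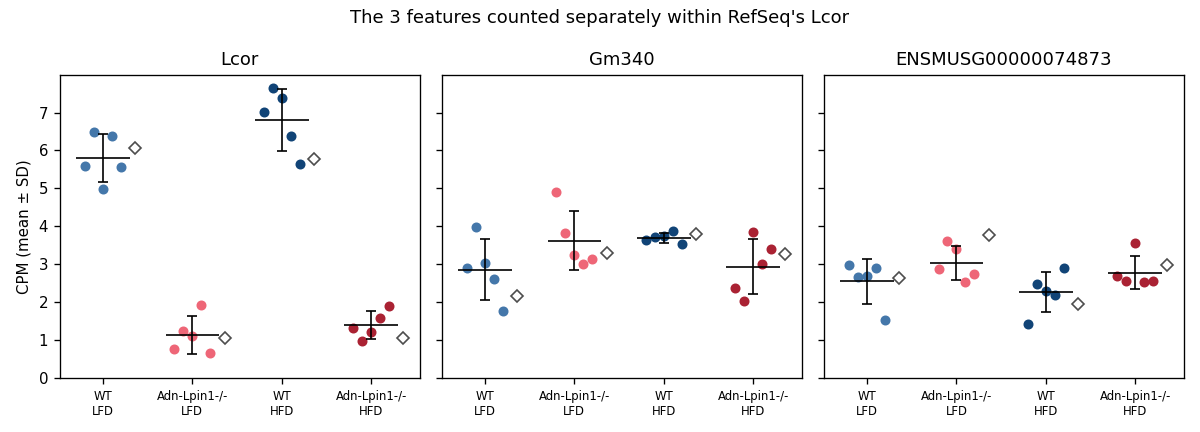
CPM of the Lcor, Gm340 and ENSMUSG00000074873 features in the 4 groups (points, single mice; bars, mean ± SD of 5 mice; open diamonds, pooled libraries). Lcor means were 5.80 and 1.14 CPM for WT and Adn-Lpin1-/- on the LFD and 6.81 and 1.40 CPM on the HFD, while the other features kept overlapping ranges.

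4930565N06Rik was the noncoding gene with steady WT values. LFD values were 2.93, 1.93, 3.34, 2.74 and 2.81 CPM in WT mice and 0.644, 0.270, 0.462, 0.558 and 0.262 CPM in Adn-Lpin1-/- mice. HFD values were 1.62, 1.67, 1.59, 1.73 and 1.83 CPM in WT mice and 0.400, 0.164, 0.211, 0.259 and 0.943 CPM in Adn-Lpin1-/- mice. The 5 WT mice on the HFD spanned a factor of only 1.15, and mouse 5 of Adn-Lpin1-/- HFD stood above the rest of its group. The log2 difference was -2.64 (SE 0.36) on the LFD and -2.07 (SE 0.35) on the HFD, and without that mouse it was -2.71 on the HFD. Golgb1, which encodes the Golgi protein giantin and surrounds 4930565N06Rik on the other strand, was between 102.8 and 138.4 CPM in Adn-Lpin1-/- LFD and between 113.3 and 124.8 CPM in WT LFD. Golgb1 had log2 differences of 0.012 (SE 0.087, adjusted p = 0.950, edgeR) on the LFD and 0.14 (SE 0.087, adjusted p = 0.259, edgeR) on the HFD, so the call of 4930565N06Rik was not matched by one of Golgb1.

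1700023H06Rik had the lowest counts. Values on the LFD were 1.47, 3.24, 0.417, 0.677 and 0.567 CPM in WT mice (14 to 144 counts) and 0.0379, 0.0771, 0.175, 0.0385 and 0 CPM in Adn-Lpin1-/- mice (0 to 11 counts). The count of 0 in mouse 5 allows up to 0.0492 CPM at 3 counts, a limit of counting error only. Values on the HFD were 1.75, 2.64, 1.09, 1.14 and 0.770 CPM in WT mice and 0.544, 0.104, 0.305, 0.104 and 0.521 CPM in Adn-Lpin1-/- mice. The knockout mice were below all WT mice on both diets, but WT mice themselves differed by up to 7.77-fold on the LFD. The log2 difference was -4.21 (SE 0.73) on the LFD and -2.20 (SE 0.58) on the HFD. On the LFD it was -3.50 without WT mouse 2 and -5.04 without Adn-Lpin1-/- mouse 3.

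Arrdc3, an alpha-arrestin gene around 1700023H06Rik on the other strand, was also lower in the knockout. WT and Adn-Lpin1-/- means were 135.4 ± 54.7 and 57.2 ± 15.7 CPM (SD, n = 5) on the LFD, and 215 ± 62.5 and 114 ± 32.9 CPM on the HFD. The log2 difference of Arrdc3 was -1.24 (SE 0.28, adjusted p = 0.00616, edgeR) on the LFD and -0.91 (SE 0.28, adjusted p = 0.0289, edgeR) on the HFD, smaller than that of 1700023H06Rik on both. Over the 20 mice, the log2 CPM of 1700023H06Rik and Arrdc3 correlated with r = 0.84, and with r = 0.56 once group means were removed, both as descriptions over libraries that share group and depth. For 4930565N06Rik and Golgb1 the same values were 0.022 and 0.53. The protocol describes no step that marks strand and the counting strand is not given in the sources used here, so reads of each noncoding gene and of unspliced RNA of the gene around it cannot be told apart.

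**Figure D3:**
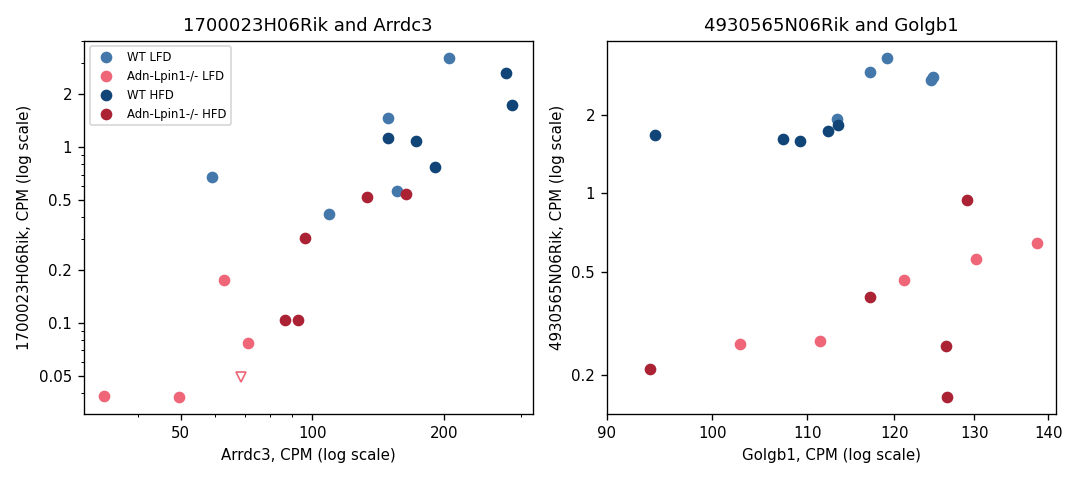
CPM (log scales) of the 2 noncoding genes in the 20 single mice against CPM of the gene around each on the other strand, with the open triangle at 3 counts for a count of 0. 1700023H06Rik and Arrdc3 are low together in Adn-Lpin1-/- mice, whereas Golgb1 ranges from 94.4 to 124.8 CPM in WT and from 94.0 to 138.4 CPM in Adn-Lpin1-/- mice, with 5 of the 10 knockout mice above every WT mouse.

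Tff3 varied strongly between mice of one group. Among LFD mice it was at 8.03, 11.7, 10.6, 16.0 and 7.69 CPM in WT mice and at 3.43, 4.47, 16.98, 3.06 and 1.13 CPM in Adn-Lpin1-/- mice. Of the 5 knockout mice, 4 lay below every WT mouse, and mouse 3 was above them all. Among HFD mice it was at 2.59, 2.40, 5.39, 6.89 and 18.6 CPM in WT mice and 0.608, 1.01, 0.539, 0.449 and 0.956 CPM in Adn-Lpin1-/- mice. Here the genotypes did not overlap, with the highest knockout mouse at 1.01 CPM. The log2 difference was -0.89 (SE 0.57) on the LFD and -3.32 (SE 0.65) on the HFD. It was -1.84 on the LFD without Adn-Lpin1-/- mouse 3, and -2.60 on the HFD without WT mouse 5. The other trefoil genes, Tff1 and Tff2, had at most 18 and 10 counts in any mouse.

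Adgrf1 likewise varied several-fold within groups. On the LFD it measured 16.8, 25.4, 18.4, 10.7 and 4.73 CPM in WT mice and 6.76, 1.68, 10.3, 4.19 and 0.574 CPM in Adn-Lpin1-/- mice. On the HFD it measured 3.48, 6.33, 5.10, 3.79 and 21.9 CPM in WT mice and 0.544, 0.403, 0.610, 1.67 and 2.06 CPM in Adn-Lpin1-/- mice. The genotypes overlapped on the LFD, where 3 of the 5 knockout mice were below all WT mice, and did not on the HFD. The log2 difference was -1.69 (SE 0.64) on the LFD and -2.94 (SE 0.70) on the HFD, and the latter was -2.15 without WT mouse 5. Adgrf5, the neighbouring receptor gene of the same subfamily, moved the other way, with log2 differences of 0.51 (SE 0.17, adjusted p = 0.0436, edgeR) and 0.53 (SE 0.16, adjusted p = 0.0309, edgeR). Adgrf2, Adgrf3 and Adgrf4 had at most 10 counts in any mouse.

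**Figure D4:**
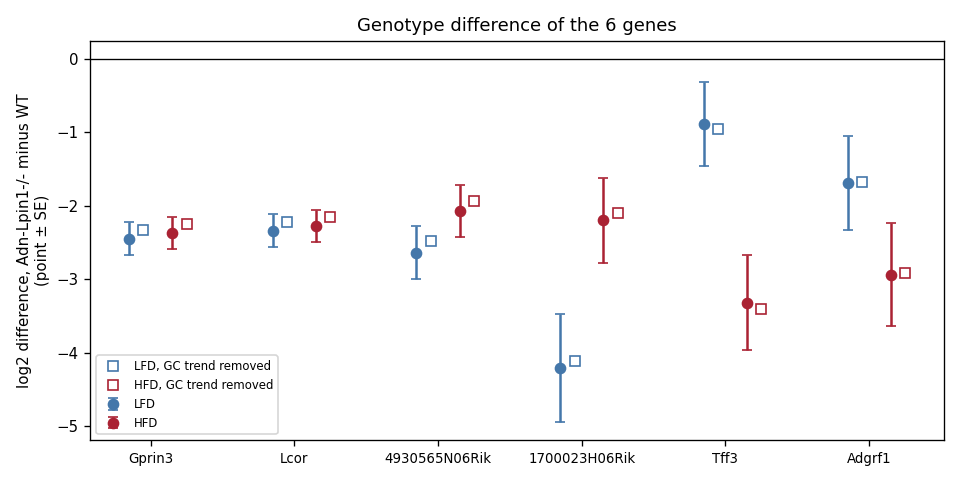
Log2 difference between Adn-Lpin1-/- and WT livers for the 6 genes on each diet (filled points ± SE from the edgeR fit; open squares, after each library's trend with GC content was removed). All 12 values are below 0, from -0.89 for Tff3 on the LFD to -4.21 for 1700023H06Rik on the LFD, and the squares lie at most 0.16 from the points.

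With each library's trend with GC content removed, the log2 difference of Gprin3 was -2.33 on the LFD and -2.25 on the HFD. For Lcor it was -2.23 and -2.16, for 4930565N06Rik -2.48 and -1.93, and for 1700023H06Rik -4.12 and -2.10. Each of these was somewhat smaller than with the trend in place. Tff3, whose GC content is above the median, moved the other way, to -0.96 and -3.40, and Adgrf1 barely moved, to -1.68 and -2.92. The pooled libraries gave 22 of 24 values inside the range of their 5 mice. In the pools, WT was 5.49-fold and 5.10-fold above Adn-Lpin1-/- for Gprin3 on the LFD and HFD, and 5.67-fold and 5.48-fold for Lcor. These pools hold RNA of the same mice and are no further replicate.

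Per kb of exon, the order of the genes differed between groups. In WT LFD, Tff3 stood at 21.9 CPM per kb, ahead of Adgrf1 at 3.94, Gprin3 at 3.64, 1700023H06Rik at 1.22, 4930565N06Rik at 1.14 and Lcor at 0.761. In Adn-Lpin1-/- HFD, Tff3 was still first at 1.45 CPM per kb, followed by Gprin3 at 0.803, 1700023H06Rik at 0.302, Adgrf1 at 0.275, Lcor at 0.184 and 4930565N06Rik at 0.164. Adgrf1 thus moved down the order, behind Gprin3 and 1700023H06Rik. In WT groups, the coefficient of variation over mice was 10.3% to 15.8% for Gprin3 and 10.8% to 11.9% for Lcor, but 31.1% to 92.9% for Tff3 and 51.7% to 96.0% for Adgrf1. In Adn-Lpin1-/- LFD it was 27.4% for Gprin3, 43.2% for Lcor, 109% for Tff3 and 83.6% for Adgrf1. In Adn-Lpin1-/- HFD these genes were at 39.3%, 25.5%, 35.8% and 71.3%, so Gprin3 and Tff3 were not separated there.

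Diet averaged over the genotypes asked whether the mean of the diet differences of the genotypes was apart from 0. A difference in a single genotype can be enough to pass it. Tff3 was the member that passed the test, at a log2 difference of -1.80 on the HFD (SE 0.43, adjusted p = 0.0137, edgeR quasi-likelihood test over all 13052 genes; exact permutation of diet within genotype over 63504 arrangements, two-sided p = 0.00164). Among all genes, 3.72% were called lower and 3.55% higher in this comparison. The diet difference of Tff3 was -3.02 (SE 0.64) in Adn-Lpin1-/- mice and -0.59 (SE 0.56) in WT mice on the log2 scale, both given with no test. Low Adn-Lpin1-/- HFD values helped choose Tff3 and also enter this comparison, so its call is not shown to be free of the choice. In Adn-Lpin1-/- mice the highest HFD value was 1.01 CPM and the lowest LFD value 1.13 CPM, whereas the WT mice of the diets overlapped. The share of all tested genes that separate in this way is not given here, so nothing is read from that gap.

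Adgrf1 missed the threshold, with a log2 difference of -1.52 (SE 0.47, adjusted p = 0.0520, edgeR; exact permutation p = 0.0163, unadjusted). Over the alternatives its adjusted p ranged from 0.00919 to 0.114, so its call depends on the setting. 1700023H06Rik was 1.20 higher (SE 0.47, adjusted p = 0.130, edgeR; exact permutation p = 0.0234, unadjusted) and passed the threshold without WT LFD mouse 2 (1.56, adjusted p = 0.0379, edgeR). Its diet difference was 2.21 (SE 0.77) in Adn-Lpin1-/- mice and 0.20 (SE 0.54) in WT mice, both given with no test. Adn-Lpin1-/- LFD mice had only 0 to 11 counts of this gene. The estimate for 4930565N06Rik was -0.41 (SE 0.25, adjusted p = 0.342, edgeR; exact permutation p = 0.0577, unadjusted), and it passed without Adn-Lpin1-/- HFD mouse 5 (-0.73, adjusted p = 0.0231, edgeR). Gprin3 had 0.24 (SE 0.15, adjusted p = 0.372, edgeR; exact permutation p = 0.203, unadjusted) and Lcor 0.27 (SE 0.15, adjusted p = 0.316, edgeR; exact permutation p = 0.0861, unadjusted). Gprin3 and Lcor thus had the smallest diet estimates.

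**Figure D5:**
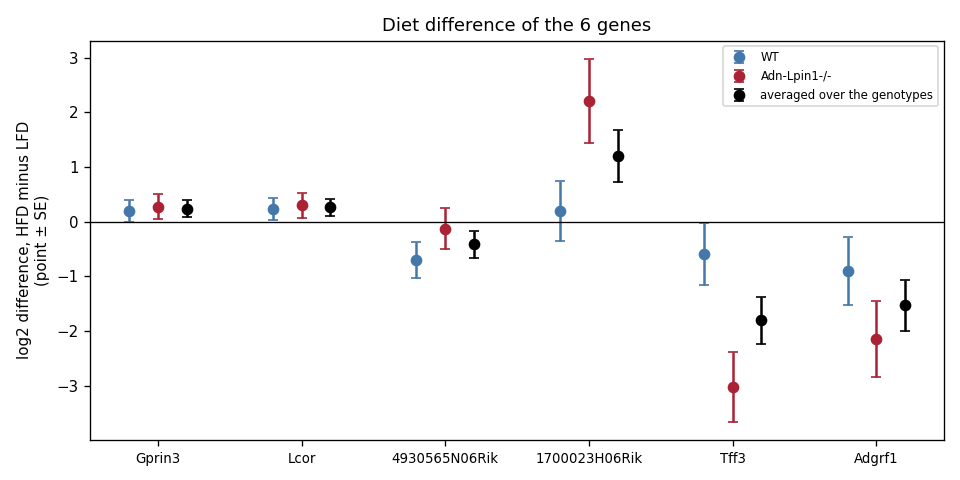
Log2 difference between the HFD and the LFD for the 6 genes in WT mice, in Adn-Lpin1-/- mice and averaged over the genotypes (points ± SE from the edgeR fit). Tff3 and Adgrf1 are below 0 in both genotypes, and Gprin3 and Lcor stay within 0.30 of 0. The point of 1700023H06Rik is at 0.20 in WT mice and at 2.21 in Adn-Lpin1-/- mice.

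The genotype difference of a gene on the HFD minus that on the LFD was not tested for the members. It was -2.43 (SE 0.84) for Tff3, -1.25 (SE 0.92) for Adgrf1, 0.57 (SE 0.50) for 4930565N06Rik and 2.01 (SE 0.95) for 1700023H06Rik on the log2 scale. For Gprin3 it was 0.079 (SE 0.30) and for Lcor 0.069 (SE 0.30). Both diets use their own mice as controls.

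Some members varied together between mice of the same group. With group means removed, log2 CPM over the 20 mice correlated with r = 0.62 between Gprin3 and 4930565N06Rik, 0.61 between Tff3 and Adgrf1, 0.51 between Adgrf1 and 4930565N06Rik and 0.42 between Gprin3 and Lcor. Between Tff3 and Gprin3 it was -0.16 and between Tff3 and Lcor 0.063. With groups left in, Gprin3 and Lcor reached r = 0.96 and Tff3 and Lcor 0.56, which includes the genotype difference that the genes were chosen for. All these values share libraries, depth and scaling.

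Of all tested genes, those most like Gprin3 over the 20 mice were Zfp971 (r = 0.97), Zfp871 (0.97) and Lcor (0.96). For Lcor they were N4bp2 (0.97), Zfp871 (0.97) and Map3k2 (0.96), and for 4930565N06Rik they were Epm2aip1 (0.95), Zmym2 (0.94) and Zfp971 (0.93). Zfp871 and Zfp971 recur among these lists, which include the genotype difference that the members were chosen for. The paper lists Zfp871 among the genes lowered on both diets, and the rule left zinc finger genes out of the members. Nothing is therefore read from this recurrence. For 1700023H06Rik they were Sp4, Msl2 and Pgap1 (0.87 to 0.88), for Tff3 Ccl9 (0.91), Rpl5 (0.88) and Pigx (0.87), and for Adgrf1 the complement gene C8b (0.95), Cnpy2 (0.95) and Prdx4 (0.93).

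With group means removed, the closest genes to Adgrf1 were Serpina1e (0.91), C8b (0.91) and Serpina1a (0.88), where the Serpina1 genes are near-identical copies whose counts are uncertain. Those closest to Tff3 were Gm14328 (0.88), the fatty acid-binding protein gene Fabp5 (0.86) and the beta-adrenergic receptor gene Adrb3 (0.78). Gprin3 was closest to Zfp971 (0.83), Ccp110 (0.79) and Mtus1 (0.77), and Lcor to Ybey (0.83), Rbm12b2 (0.81) and Otud4 (0.80). 4930565N06Rik was closest to Egf (0.81), Il15ra (0.79) and Ackr4 (0.78), and 1700023H06Rik to Abcb1b (0.75), Helz2 (0.73) and Ccdc186 (0.73). C8b and Zfp971 were thus the genes named both with and without the group means.

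Within 500 kb of the members, 5 of 44 tested genes (11.4%) differed by genotype with the LFD and 10 of 44 (22.7%) with the HFD, near the 14.4% and 18.6% of all genes called in either direction. By member, the tested genes called lower and higher by genotype on the LFD were 1 and 0 of 8 near Tff3, 1 and 1 of 7 near Adgrf1, 0 and 0 of 4 near Gprin3, 0 and 0 of 16 near Lcor, 0 and 1 of 6 near 4930565N06Rik and 1 and 0 of 3 near 1700023H06Rik. With the HFD they were 1 and 1, 1 and 3, 0 and 0, 0 and 1, 0 and 1, and 1 and 1 in the same order. Tigd2, next to Gprin3, had log2 differences of -0.19 (adjusted p = 0.182, edgeR) on the LFD and -0.19 (adjusted p = 0.149, edgeR) on the HFD. Near Tff3, the sterol exporter gene Abcg1 was 0.63 higher on the HFD (adjusted p = 0.0447, edgeR) and Gm15318 was 0.57 lower (adjusted p = 0.0407, edgeR). The features next to Lcor and Tff3 on both sides showed no decrease of a comparable size. Of these, Gm340 lies inside the span of RefSeq's Lcor and is no separate neighbour by that annotation. Gm340 and ENSMUSG00000074873 are also among the 16 tested genes near Lcor.

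Called genes of the LCOR list, which holds LCOR partners and the paralog Lcorl, were near the background share, at 11.8% (LFD) and 17.6% (HFD). Of the 17 tested genes of this list other than Lcor, 0 were called higher and 2 lower on the LFD, and 1 and 2 on the HFD. Their median log2 differences were -0.019 and 0.039, beside 0.0065 and 0.0023 for all tested genes. At an unadjusted p under 0.05 there were 5 and 7, DESeq2 called 2 and 5 and voom 3 and 4. The genes called lower were Lcorl and the polycomb subunit gene Suz12 on both diets (-0.28, adjusted p = 0.0131, and -0.35, adjusted p = 0.00316, edgeR). Phf1 was the one called higher (0.39 on the HFD, adjusted p = 0.00394, edgeR). Of 10 nuclear receptor genes linked to LCOR, the glucocorticoid receptor gene Nr3c1 fell on both diets (-0.46, adjusted p = 0.000480, and -0.37, adjusted p = 0.00250, edgeR), and Pparg rose on the LFD (1.40, adjusted p = 0.0286, edgeR). By diet averaged over the genotypes, 2 of these 10 were called higher (Rxra and Nr3c1) and 0 lower, beside 3.55% and 3.72% of all tested genes.

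Among 15 tested adhesion receptor genes other than Adgrf1, 4 were called higher and 0 lower on the LFD, and 5 and 1 on the HFD. Over all tested genes, 6.27% were called higher and 8.11% lower on the LFD, and 9.87% and 8.78% on the HFD. Medians were 0.46 and 0.48, beside 0.0065 and 0.0023 for all tested genes. Of the adhesion receptor genes, voom called 3 in all on the LFD and 6 on the HFD. Those with the smallest p were Adgrl1 (0.36, adjusted p = 0.0126 on the LFD, edgeR; 0.48, adjusted p = 0.00198 on the HFD, edgeR) and Adgrg3 (1.01, adjusted p = 0.00394, edgeR; 1.03, adjusted p = 0.00301, edgeR). Of the 3 tested genes of the Go and Gi alpha subunits, Gnai1 rose on both diets (1.55, adjusted p = 0.00609, and 1.37, adjusted p = 0.00737, edgeR). Among 2 tested mucin genes, Muc6 (1.31, adjusted p = 0.00122, edgeR) and Muc1 (1.21, adjusted p = 0.0191, edgeR) rose on the HFD and neither passed on the LFD. The adhesion receptor, alpha subunit and mucin genes that were called were therefore mostly higher. No GPRIN or trefoil gene other than the members was among the tested genes.

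Markers of other cell types were set beside the members. For these lists and those of the next paragraph, 8.11% of all tested genes were called lower and 6.27% higher on the LFD. On the HFD the shares were 8.78% and 9.87%. Hepatocyte markers were called lower in 2 of 10 on the LFD (Apob and Serpina1a) and in 6 of 10 on the HFD, with median log2 differences of -0.28 and -0.42, and their summed level was 118970 to 126706 CPM in WT LFD and 86844 to 113623 CPM in Adn-Lpin1-/- LFD. On the HFD these sums ran from 112179 to 137680 CPM in WT and from 90513 to 119988 CPM in Adn-Lpin1-/- mice. Alb made up a large part of these sums, with group means from 63250.8 CPM in Adn-Lpin1-/- HFD to 80047 CPM in WT HFD. Cholangiocyte markers were called in 0 of 9 on either diet by edgeR (on the LFD 4 at an unadjusted p under 0.05, 1 by DESeq2 and 1 by voom, and on the HFD 0 by each), with medians of 0.51 and 0.34, and their sum was 101 to 143 CPM in WT mice and 112 to 194 CPM in Adn-Lpin1-/- mice. Cftr and Ggt1 stayed under 1 CPM in every mouse.

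Stellate cell markers rose by genotype in 6 of 10 with the LFD and 5 of 10 with the HFD (summed 94.0 to 240.4 CPM in WT, 198 to 481 CPM in Adn-Lpin1-/- mice), endothelial markers in 3 of 7 and 4 of 7, and Kupffer cell markers in 0 of 7 and 5 of 7. Voom called fewer for endothelial markers on the LFD (1) and stellate cell markers on the HFD (3). On the LFD, Kupffer cell markers were also at 0 for an unadjusted p under 0.05, for DESeq2 and for voom. The 3 tested adipocyte markers Cfd, Fabp4 and Cidea rose on both diets by edgeR and DESeq2, whereas voom called 1 of the 3 with the LFD and 3 with the HFD. The summed level of all 8 ran from 3.42 to 25.0 CPM in WT mice and from 10.5 to 233 CPM in Adn-Lpin1-/- mice, with Plin1, Lep, Retn and Ucp1 under 1 CPM in every mouse. Adipoq, also of this list, did not pass the limit on low counts. The paper counts Cidea among genes associated with hepatic steatosis, so these rises are not read as adipocyte content. Of 2 tested T cell markers 0 were called by edgeR (1 at an unadjusted p under 0.05 on each diet, 0 by DESeq2 and voom), and of 10 intestine and pancreas markers 8 stayed under 1 CPM in every mouse. Of the other 2, Fabp2 rose and Cela1 fell on the LFD. Of 14 growth hormone-responsive liver genes, 3 were called lower and 0 higher on the LFD (Ghr, Igfals and Hsd3b5), 3 and 1 on the HFD, and 2 and 3 by diet. By diet, 3.72% of all tested genes were called lower and 3.55% higher. The part of cell composition in the members' differences was not tested.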

How the data were processed

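Liver RNA of 20 single mice and 4 pools was sequenced. The authors aligned reads to GRCm38 with STAR 2.5.1a, counted them with featureCounts 1.4.6-p5 on Ensembl genes, and deposited the raw count, CPM and RPKM of 41388 genes per library. The deposited CPM and RPKM were checked but not analysed further; the deposited counts gave every value. The 355 rRNA genes were left out. Genes over 1 CPM in at least 4 of 20 libraries (13052) entered a quasi-likelihood fit of group means in edgeR 4.0.16 (R 4.3.3) after TMM scaling, with p adjusted by Benjamini-Hochberg at 0.05, after a check on simulated counts. Log2 CPM used a prior count of 2. Pools repeat the same mice and were left out. Replicates are separate mice per the labels.

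The members and lists were chosen with earlier results of these data known. Genes named are the members, called genes of each list (at most 4 with the smallest p) with family members, the 3 genes most correlated with each member, their nearest neighbours (1 of which is not reported here), and Lpin1. Alternatives were DESeq2 1.42.0 size factors and Wald test, voom in limma 3.58.1, pools as sixth libraries, other limits on low counts, thinning, the replicate block, only the groups compared, and each mouse left out. Removal of the GC trend was chosen after seeing the data. Figures used Python 3.11.15 and matplotlib 3.10.9. Exon coordinates came from the deposited files and promoters from RefSeq. Interval and floor values cover counting error only.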

Additional observations from a re-analysis of the deposited data

Results flagged for a closer look

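In 3 of 24 sets of 5 mice (6 genes in 4 groups), 1 mouse stood apart from the others by Dixon's criterion, applied to CPM and not to log2 CPM. Its rate of about 1 of 20 sets holds for independent sets of normally distributed values. CPM of these genes need not be normal and the sets share mice, so the number of flags is not compared with that rate. Tff3 in Adn-Lpin1-/- LFD was highest at 16.98 CPM in mouse 3, with 0.789 of the group's range between it and the next mouse. In WT HFD, mouse 5 stood apart for Tff3 at 18.6 CPM (0.723 of the range) and for Adgrf1 at 21.9 CPM (0.846 of the range).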

How the results depend on the processing

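Across the alternatives, 161 of 174 tested diet differences of the members kept their direction and side of the threshold and 13 newly passed it. All 360 genotype differences of the members, which have no test, stayed below 0, and 1 of them moved by more than the spread between mice. Of 89 counts of called genes, 83 stayed within 1.5 times the count reported and 6 did not. The number of genes called by diet averaged over the genotypes was 1539 with voom and 2011 with the pools as sixth libraries, which also gave 3008 (LFD) and 3760 (HFD) genes called by genotype. With each mouse left out, the counts ran from 1208 to 1954 on the LFD (lowest without WT LFD mouse 3), from 1477 to 2750 on the HFD (lowest without Adn-Lpin1-/- HFD mouse 2) and from 643 to 1205 by diet. The diet difference of Adgrf1 passed the threshold with DESeq2's Wald test (-1.53), voom (-1.78), the pools (-1.52), no limit on low counts (-1.52) and the GC trend removed (-1.55), and ran from -1.93 to -1.27 with each mouse left out. In the same fits, the diet difference ran from 1.04 to 1.61 for 1700023H06Rik and from -0.73 to -0.32 for 4930565N06Rik, and the genotype difference of 4930565N06Rik on the HFD from -2.71 to -1.88. Tff3 stayed called by diet in all 29 alternatives (-2.18 to -1.33, adjusted p at most 0.0307). The cause of these changes was not tested.

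Same-numbered mice did not pair: the correlation of their deviations from the group means was -0.28 to 0.28, and 3 of 10 pairs were over 0.1. The replicate block gave 1532, 2012 and 781 called genes (LFD, HFD, diet), and changed no call of a member. With 0 to 11 counts per Adn-Lpin1-/- LFD mouse, depth limits the size of the difference of 1700023H06Rik.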
